A study of Homo sapiens with 9 samples.

Results

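The genes described here are SPARC and 9 other genes of secreted matrix glycoproteins, namely FSTL1, POSTN, THBS1, TNC, LUM, BGN, DCN, TGFBI and FBN1. They were chosen from earlier results of these same libraries, in which SPARC was low in clone 1 and POSTN was low in clone 2. Their changes are therefore given as a description with no test. Where a member is said to be called in a fit, the call describes that fit and does not test the member. All 10 were found by symbol among the 56505 gene symbols of the count tables, and 8 of them had enough counts to enter the fit of 16921 genes. MDA-MB-231-D3H2LN is a line derived from the established human mammary tumour line MDA-MB-231. Unedited cells, called wild type and expressing JAG1, were set against 2 edited lines, clone 1 and clone 2, each with a CRISPR/Cas9 deletion in JAG1, and each of the 3 groups had 3 RNA-seq libraries. JAG1 encodes a ligand of the Notch receptors, and the series belongs to a study of tumour-cell JAG1 in spread to lymph nodes. Both lines were made by transfecting Cas9 protein with guides to separate sites in the same JAG1 exon, and per the labels each is homozygous and descends from 1 cell, so a difference between a clone and wild type describes that line. Wild-type cells are labelled as the control, and all groups shared one medium, high-glucose DMEM with serum.

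Secreted matrix glycoproteins fall into structural proteins, which build fibres and fibrils, and matricellular proteins, which bind those structures, cell-surface receptors and growth factors without being part of the scaffold. SPARC binds collagen and calcium and shapes how collagen is laid down. In breast tumours much of the SPARC, periostin, lumican and decorin is usually made by fibroblasts of the stroma, while thrombospondin-1, tenascin-C and the TGF-beta-induced protein are also made by mesenchymal-like carcinoma cells.

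Promoters of 3 members with different patterns are shown because the changes below concern transcript amount. SPARC was low in both clones, POSTN was low in clone 2, and THBS1 had the highest level of the 10 genes. The sequences come from RefSeq on GRCh38.p14 and run from 250 bases before to 50 bases after the RefSeq start, 5′ to 3′ on the strand of the gene. They lie at chr5:151686866-151687165 on the minus strand for SPARC, chr13:37598719-37599018 on the minus strand for POSTN and chr15:39580829-39581128 on the plus strand for THBS1. Capitals mark matches, on either strand, to a purine repeat spelled GGAGGA, the TATA box spelled TATAAA, the GC box spelled GGGCGG, the AP-1 site spelled TGANTCA, or the core site of RBPJ, the DNA-binding partner of Notch, spelled TGGGAA.
SPARC: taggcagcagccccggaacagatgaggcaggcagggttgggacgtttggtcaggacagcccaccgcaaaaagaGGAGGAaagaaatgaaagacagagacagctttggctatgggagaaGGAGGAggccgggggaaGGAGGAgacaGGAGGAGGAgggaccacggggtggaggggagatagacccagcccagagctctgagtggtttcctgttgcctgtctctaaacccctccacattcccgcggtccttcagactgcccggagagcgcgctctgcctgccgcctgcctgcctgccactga
POSTN: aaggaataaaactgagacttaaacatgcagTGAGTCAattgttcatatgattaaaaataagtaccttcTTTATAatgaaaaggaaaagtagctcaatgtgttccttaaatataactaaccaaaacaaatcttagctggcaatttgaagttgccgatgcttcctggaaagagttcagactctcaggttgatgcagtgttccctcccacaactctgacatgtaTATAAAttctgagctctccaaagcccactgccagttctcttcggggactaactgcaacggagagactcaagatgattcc
THBS1: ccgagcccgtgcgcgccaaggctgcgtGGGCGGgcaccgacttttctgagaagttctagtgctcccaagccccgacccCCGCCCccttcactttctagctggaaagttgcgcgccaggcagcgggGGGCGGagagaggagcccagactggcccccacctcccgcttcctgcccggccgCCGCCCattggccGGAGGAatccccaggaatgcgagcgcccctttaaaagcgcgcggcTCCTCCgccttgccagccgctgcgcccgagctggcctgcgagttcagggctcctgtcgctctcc
In the SPARC promoter GGAGGA starts at positions -177, -132, -115, -105 and -102 from the start site, the last pair overlapping. That motif was picked after the sequence was seen, and 36.6% of the 35116 RefSeq promoters of this length hold it. The POSTN promoter holds TATAAA at -29 and, on the other strand, at -182, and TGANTCA at -220; these motifs occur in 11.5% and 7.7% of promoters. The THBS1 promoter holds GGGCGG at 4 positions, -223 and -125 on the gene's strand and -172 and -72 on the other, and 45.0% of promoters have a match. It also holds GGAGGA, at -59 on the gene's strand and -14 on the other. TGGGAA occurs in 24.0% of promoters and in none of these 3. Of the 8 members with a promoter entry, TNC, TGFBI and FBN1 hold TGGGAA once each, at -81, -184 and -60. Besides SPARC and THBS1, the FSTL1 and BGN promoters hold GGAGGA. The SPARC start used by RefSeq lies 250 bases inside the start listed with the counts, the POSTN start 76 bases inside, and the THBS1 starts coincide.

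JAG1 was lower in all 6 edited libraries than in any unedited one. Wild-type replicates 1, 2 and 3 held 5069, 3803 and 3592 JAG1 counts, clone 1 held 2130, 1699 and 1657, and clone 2 held 1230, 1406 and 1190. Library totals spanned 16890890 to 22456164 counts. The 9 listed markers of MDA-MB-231-like cells, among them VIM, CD44 and AXL, were detected in each group, with summed levels of 4535 to 6526 CPM (counts scaled to a common library size) in wild type, 4396 to 5274 in clone 1 and 6591 to 8503 in clone 2. The 8 fibroblast and pericyte markers summed to 30.6 to 51.2 CPM in wild type, 26.6 to 28.8 in clone 1 and 21.8 to 27.3 in clone 2, COL1A1 holding most of it and none of the 8 at 0 over a group. Leukocyte markers summed to at most 9.77 CPM, with CD3E at 0 in every group. CSF1R reached 8.58 CPM in clone 1 replicate 1, and CD14 reached 4.18 in wild-type replicate 2. Endothelial markers summed to at most 7.39 CPM, with CDH5 at 0 in wild type and clone 2, while PECAM1 reached 5.23 in clone 1 replicate 3. Luminal epithelial markers summed to 19.9 to 23.2 CPM in wild type, 25.2 to 28.5 in clone 1 and 16.4 to 16.9 in clone 2, ranges that did not overlap. EPCAM held most of each sum, with means of 17.9, 24.1 and 12.3 CPM in wild type, clone 1 and clone 2. FOXA1 ran the other way, with means of 2.65, 1.79 and 3.72 CPM. No other luminal marker had a group mean above 0.738 CPM. The part of any of these cells in the results below was not tested, and in bulk RNA fewer cells of a type and less RNA per cell cannot be told apart. Nothing in the labels states that replicates were separate cultures, so the spread between libraries may be technical.

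Per length, the 10 genes spanned a wide range of levels in wild-type cells. In TPM (counts divided by the exon length listed with them and scaled to a common sum), THBS1 stood at 1112 ± 440.3 (mean ± SD, n = 3 here and below) and TGFBI at 308.2 ± 183.0. TNC had 80.0 ± 22.5 TPM, SPARC 71.2 ± 24.5 and FSTL1 55.5 ± 14.02, and these 3 did not differ beyond their spread. LUM followed at 16 ± 7.14, FBN1 at 7.51 ± 1.51 and POSTN at 5.04 ± 6.52, where LUM and POSTN, and FBN1 and POSTN, overlapped within their SDs. DCN was at 0.213 and BGN at 0.0701. In percentiles of the genes tested, THBS1 stood at 99.4 and TGFBI at 97.3, while FBN1 stood at 40.1. SPARC stood at 85.5 in wild type and at 25.8 in each clone. THBS1 and TGFBI together made up 82.9 to 93.5% of the summed TPM of the 10 genes in every library. That sum was 1034 to 2370 in wild type, 616.9 to 1203 in clone 1 and 1472 to 2585 in clone 2, so its ranges overlapped wild type in both clones.

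**Figure D1:**
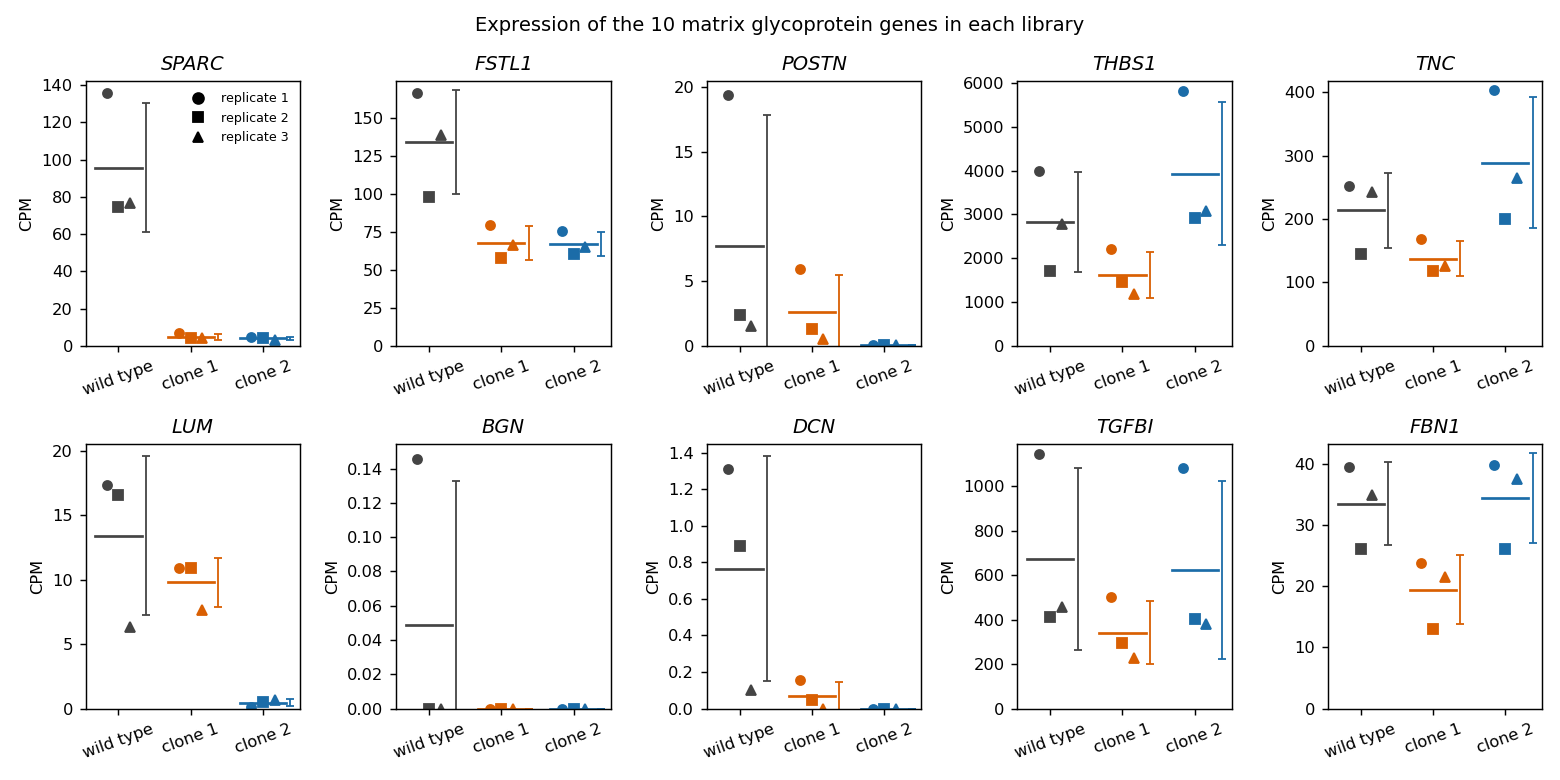
CPM (vertical axes, each from 0 and with its own scale) of the 10 genes in wild type, clone 1 and clone 2; each point is 1 library, with symbols for replicate numbers, horizontal lines for group means and bars for the SD. SPARC is low in all 6 knockout libraries, POSTN and LUM in the 3 clone 2 libraries, and THBS1 and TNC sit lower in clone 1 than in clone 2.

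SPARC and its relative FSTL1, a secreted follistatin-like glycoprotein that binds BMP-family ligands, were the 2 members called lower in both clones. Wild-type replicates 1, 2 and 3 held 2792, 1769 and 1527 SPARC counts, clone 1 held 130, 85 and 73, and clone 2 held 78, 82 and 66. The corresponding levels were 135.5, 74.7 and 76.7 CPM, then 6.72, 4.04 and 4.06, and then 4.82, 3.97 and 3.13. Every wild-type library lay more than 10 times above every knockout library, and the clones overlapped each other. The fitted level was 19.3-fold lower in clone 1 (log2 fold change −4.27, SE 0.28) and 24.2-fold lower in clone 2 (−4.60, SE 0.28). Both clones kept some SPARC transcript, with 288 and 226 counts over their 3 libraries, and the difference between them was −0.32 on the log2 scale (SE 0.28). Leaving out any single library moved the change to between −4.56 and −3.94 in clone 1 and between −4.77 and −4.26 in clone 2.

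FSTL1 had 166.4, 97.7 and 138.7 CPM in wild-type replicates 1, 2 and 3. It had 79.7, 57.8 and 66.2 CPM in clone 1 and 75.9, 60.6 and 65.2 in clone 2. No knockout library reached the lowest wild-type library, and the clones lay on top of each other (67.9 ± 11.1 and 67.2 ± 7.87 CPM). The log2 fold change was −0.98 in clone 1 and −1.0 in clone 2 (SE 0.18 each), about a halving of the transcript in either line. SPARC lies on chromosome 5 (GRCh38, 151661096 to 151687165, minus strand) and FSTL1 on chromosome 3 (120392293 to 120451253, minus strand). Transcripts on the opposite strand overlap exons of each, with 6 and 15 counts over the 9 libraries, and without a known strand setting such reads cannot be told apart.

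The fasciclin-domain members POSTN and TGFBI had the largest spread between replicates of the tested members in wild type and clone 1. POSTN encodes periostin, a matricellular protein that binds integrins and tenascin-C and lies on chromosome 13 (37562583 to 37598844, minus strand). Wild-type replicates 1, 2 and 3 had 399, 56 and 30 POSTN counts, clone 1 had 114, 28 and 9, and clone 2 had 1, 1 and 2. As levels these were 19.4, 2.37 and 1.51 CPM in wild type, 5.90, 1.33 and 0.500 in clone 1, and 0.0618, 0.0484 and 0.0948 in clone 2. Wild type and clone 1 overlapped, whereas every clone 2 library lay below every other library. The clone 2 change was −6.69 on the log2 scale (SE 1.54; 4 counts against 485), and that in clone 1 was −1.58 (SE 1.00). Wild-type replicate 1 held most of the wild-type counts: without it the clone 1 change turned to 0.40 and the clone 2 change became −4.70. Clone 2 lost its call for POSTN when wild-type replicate 2 or any 1 clone 2 library was left out, and kept it in 5 of 9 such fits; it was also lost with no filter on low counts. The difference between the clones, −5.10 (SE 1.61), was called in 4 of 9 such fits.

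TGFBI, a TGF-beta-induced protein that binds integrins and collagen, lies on chromosome 5 (136028895 to 136063818, plus strand). It had 1143, 412.4 and 458.0 CPM in wild-type replicates 1, 2 and 3, 500.5, 296.1 and 226.0 in clone 1, and 1083, 401.9 and 381.9 in clone 2. The groups overlapped in every comparison. The log2 fold change was −0.98 in clone 1 (SE 0.52) and −0.11 in clone 2 (SE 0.51), neither of them called. Without wild-type replicate 1 they became −0.36 and 0.51.

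THBS1 and TNC, both large matricellular proteins, lay lower in clone 1 than in clone 2. THBS1 encodes thrombospondin-1, which activates latent TGF-beta and binds CD47 and CD36 (chromosome 15, 39581079 to 39599466, plus strand). THBS1 stood at 4001, 1709 and 2776 CPM in wild type, at 2203, 1458 and 1189 in clone 1, and at 5807, 2911 and 3078 in clone 2. Each clone overlapped wild type, and all clone 2 libraries lay above all clone 1 libraries. The log2 fold change against wild type was −0.81 (SE 0.33) in clone 1 and 0.47 (SE 0.33) in clone 2, and the clones differed by 1.28 (SE 0.34). That difference moved to between 0.89 and 1.58 when any single library was left out. It was lowest, and not called, without clone 2 replicate 1. A same-strand transcript, CTD-2033D15.2, lies within the THBS1 gene with no exon in common and had 3857 counts over the 9 libraries.

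TNC encodes tenascin-C, which modulates cell adhesion to fibronectin (chromosome 9, 115019578 to 115118257, minus strand). Wild-type libraries held 5209, 3441 and 4831 TNC counts, clone 1 held 3265, 2474 and 2261, and clone 2 held 6523, 4134 and 5577. Scaled to library size these were 213.6 ± 59.3, 137.3 ± 27.6 and 289.2 ± 103.8 CPM. As for THBS1, each clone overlapped wild type, and the clones did not overlap each other. TNC changed by −0.64 (SE 0.25) in clone 1 and 0.44 (SE 0.25) in clone 2, with 1.07 (SE 0.26) between the clones.

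The 3 small leucine-rich proteoglycans, which bind collagen fibrils and set their spacing and width, are LUM, DCN and BGN. LUM was low in clone 2, DCN had few counts in both clones, and BGN was near 0 throughout. LUM, which encodes lumican, had counts of 358, 393 and 126 in wild type, 211, 230 and 137 in clone 1, and 2, 11 and 14 in clone 2. Wild type and clone 1 overlapped, at 13.4 ± 6.17 and 9.82 ± 1.91 CPM, and clone 2 stood apart at 0.440 ± 0.282. The clone 2 change was −4.86 (SE 0.47), a 28.97-fold lower level, while clone 1 changed by −0.45 (SE 0.35). Leaving out any single library moved the clone 2 change to between −5.26 and −4.46. DCN, which encodes decorin, had 27, 21 and 2 counts in wild type, 3, 1 and 0 in clone 1, and 0 in each clone 2 library. Over the groups DCN held 50, 4 and 0 counts, and the clone 1 libraries overlapped wild type. It did not pass the filter on low counts. Against a floor of 3 counts over the group, DCN was at least 15.0-fold lower in clone 2 than in wild type, a bound that covers counting error only. BGN, which encodes biglycan, had 3 counts in wild-type replicate 1 and 0 elsewhere, and no fold is given. LUM and DCN are neighbours on chromosome 12 (91102629 to 91111831 and 91140484 to 91183123, both minus strand), 37.9 kb apart by their listed starts, and BGN lies on the X chromosome (153494939 to 153509554, plus strand).

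FBN1, the main structural member of the set, encodes fibrillin-1, the backbone of the microfibrils (chromosome 15, 48408306 to 48645849, minus strand). Its levels were 39.4, 26.1 and 34.9 CPM in wild type, 23.8, 13.0 and 21.5 in clone 1, and 39.8, 26.1 and 37.5 in clone 2. All clone 1 libraries lay below all others, and clone 2 overlapped wild type. The log2 fold change was −0.78 (SE 0.23) in clone 1, where it was not called, and 0.04 (SE 0.22) in clone 2. The clone 1 change was called with DESeq2, with no filter on low counts, in the fit of the 6 libraries compared, with the replicate block, and without wild-type replicate 2 or clone 2 replicate 2. The clones differed by 0.83 (SE 0.23), a call lost without clone 1 replicate 2.

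**Figure D2:**
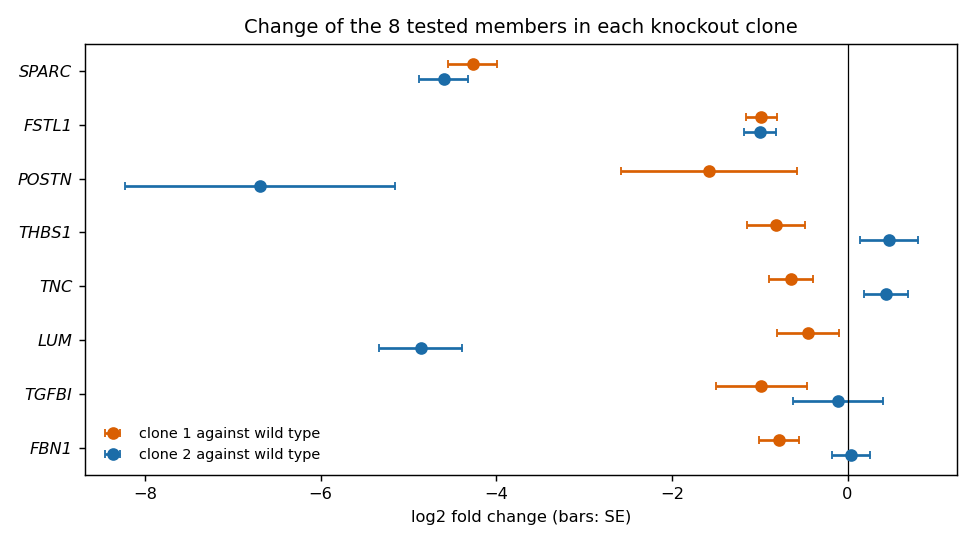
Log2 fold change (horizontal axis) of the 8 tested genes in clone 1 and clone 2 against wild type, with points for the fitted values and bars for the SE. SPARC lies at −4.27 and −4.60 and FSTL1 at −0.98 and −1.0, whereas LUM lies at −0.45 in clone 1 and −4.86 in clone 2.

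A gene is called below where edgeR's quasi-likelihood test, adjusted over all 16921 genes by the Benjamini-Hochberg method, gave a value under 0.05. Since the members were chosen on these comparisons, nothing is read from their counts of calls. In clone 1, 5.51% of all genes were called against wild type, 4.1% lower and 1.41% higher, and 2 of the 8 tested members were called lower (SPARC and FSTL1) and 0 higher. Libraries did not overlap for 16.5% of genes in the lower and 13.1% in the higher direction, and for 3 members (SPARC, FSTL1 and FBN1), all lower. All 8 members had negative fold changes, with a median of −0.89 against −0.02 over all genes. In clone 2, 5.96% of genes were called, 2.75% lower and 3.21% higher, and 4 members were called lower (SPARC, FSTL1, POSTN and LUM). Libraries did not overlap for 11.7% of genes in the lower and 14.3% in the higher direction, and for the same 4 members, all lower. The median change of the members in clone 2 was −0.55, against 0.00 over all genes. A correction for GC content and length moved the share of calls that were higher from 25.6 to 41.1% in clone 1 and from 53.9 to 70.7% in clone 2, and it kept the same members called.

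Between the clones, 33.9% of genes were called, 14.1% lower in clone 2 and 19.8% higher. Of the members, POSTN and LUM were called lower and THBS1, TNC and FBN1 higher in clone 2. The libraries of the clones did not overlap for 21.5% of genes in the lower and 25.8% in the higher direction, and for these same 5 members. Both clones were set against the same 3 wild-type libraries, so their changes share that error. With the replicate number as a block, clone 2 against wild type gave 2699 called genes in place of 1008, and 5 called members in place of 4, TNC being added as higher (0.42). With the GC and length correction added to the block, TNC was not called and 4 members were.

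Within each group, replicate 1 tended to hold the highest level of these genes. It was highest for 8 of the 8 tested members in wild type, where it was highest for 31.0% of all genes. In clone 1 it was highest for 7 members against 38.5% of all genes, and in clone 2 for 6 against 36.1%. For 6 members it was highest in all 3 groups, which held for 10.28% of all tested genes; replicates 2 and 3 were highest in all groups for 4.78% and 4.24%. POSTN in replicate 1 was 10.0 times the mean of the other replicates in wild type and 6.44 times in clone 1. TGFBI was 2.63, 1.92 and 2.76 times higher there in wild type, clone 1 and clone 2. In clone 2, replicate 1 was not highest for LUM, at 0.207 times the mean of the others, or for POSTN, at 0.863 times. What a replicate number stands for is not given in the labels. Without replicate 1 of every group, a choice made after seeing the data, 3 members were called in clone 1 (TGFBI added) and the same 4 in clone 2, with POSTN at −4.67.

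**Figure D3:**
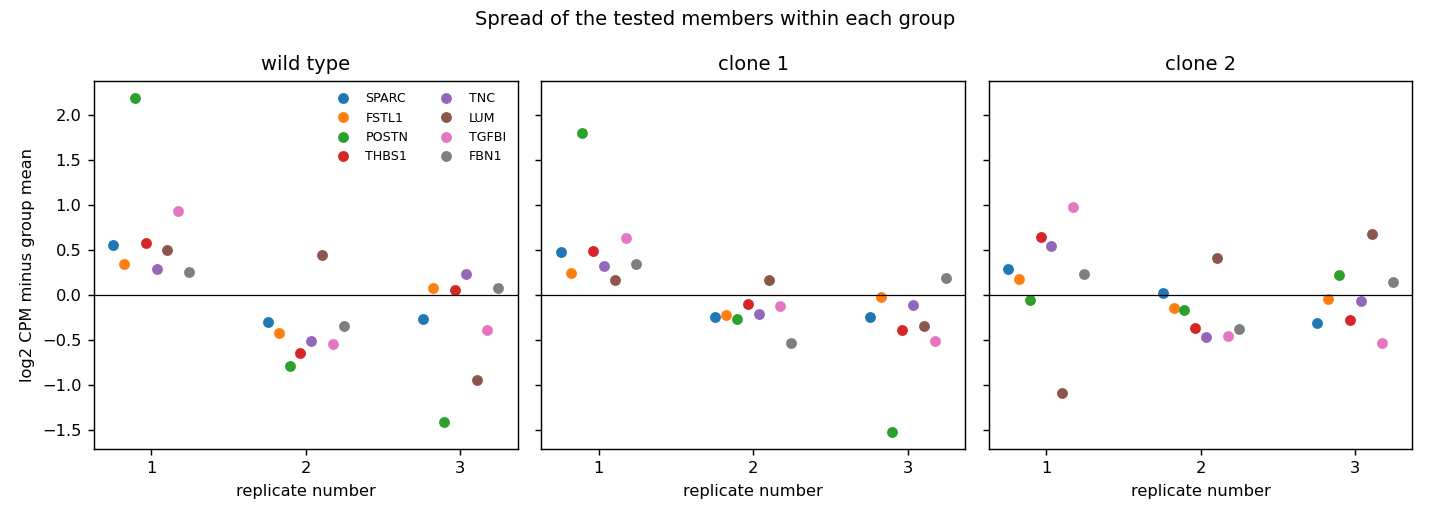
Log2 CPM minus the group mean (vertical axis) by replicate number in wild type, clone 1 and clone 2, 1 point per tested member, colours for genes. In wild type all 8 members are highest in replicate 1, and in clone 2 replicate 1 LUM lies at −1.09.

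The relatives and partners of these genes were listed by family and by known binding, with earlier results of these data known. Of 106 such genes that are not members, 72 could be tested. In clone 1, 5 were called lower and 1 higher, and in clone 2, 9 lower and 1 higher, with medians of −0.13 and −0.30. Over all tested genes 5.51 and 5.96% were called, and the medians were −0.02 and 0.00. In the SPARC family, FSTL5, a secreted follistatin-like protein, had 289 counts over the wild-type libraries and 0 in either clone. It was at least 87.6-fold lower in clone 1 (adjusted p = 0.000106 by edgeR) and at least 87.0-fold lower in clone 2 (adjusted p = 0.000138). SPOCK1, a proteoglycan of the family, fell in clone 2 from 56.3 ± 20.0 to 26.4 ± 8.01 CPM (log2 fold change −1.10, SE 0.28, edgeR adjusted p = 0.0362). Dropping wild-type replicate 1, or clone 2 replicate 2 or 3, ended the call (adjusted p up to 0.180). FSTL3, an activin-binding relative and the highest non-member of the family per length over all libraries, had 51.8, 38.4 and 49.5 TPM in wild type, clone 1 and clone 2, and was not called.

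The other fasciclin-domain, thrombospondin and tenascin genes and the other leucine-rich proteoglycans gave 0 calls by edgeR or DESeq2 against wild type among 7 tested. Over all tested genes edgeR called 5.51% in clone 1 and 5.96% in clone 2. The unadjusted edgeR p was under 0.05 for STAB2, THBS2 and TSKU in clone 1 and for CHAD, THBS2 and TSKU in clone 2. The share of all genes under that unadjusted threshold is not given, so nothing is read from these counts. STAB2, a scavenger receptor for hyaluronan, had 1.09 ± 0.339, 2.47 ± 0.549 and 1.01 ± 0.388 CPM in wild type, clone 1 and clone 2. THBS2, which like THBS1 inhibits angiogenesis, stood at 125.9 ± 11.7, 80.4 ± 13.95 and 81.8 ± 36.9 CPM. TNXB and TSKU, the highest of their lists when members are left out, had log2 fold changes of 0.16 and −0.48 in clone 1 and −0.14 and −0.47 in clone 2.

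Among 20 tested genes of fibrillins, fibulins and microfibrils, 2 fell and 1 rose in clone 1, where 4.1% of all genes were called lower and 1.41% higher, and 2 fell in clone 2, where 2.75% were called lower. MFAP2, a microfibril component that binds fibrillin, fell in both, from 43.3 ± 13.1 CPM to 21.8 ± 1.65 in clone 1 (log2 fold change −0.99, SE 0.23, edgeR adjusted p = 0.0251) and to 21.2 ± 7.14 in clone 2 (−1.04, SE 0.23, adjusted p = 0.0196). The clone 1 call did not survive leaving out wild-type replicate 1 or any 1 clone 1 library (adjusted p up to 0.0964), nor the clone 2 call leaving out wild-type replicate 1 or clone 2 replicate 3 (up to 0.0915) or fitting the 6 libraries compared (0.0510). EMILIN2, an elastin-associated glycoprotein, fell in clone 1 (−1.05, SE 0.20, edgeR adjusted p = 0.00667) and held in 9 of the 9 fits that omit a library, while clone 2 stood at −0.03. ADAMTSL1, a secreted relative of the ADAMTS proteases, rose in clone 1 from 26.7 ± 5.98 to 44.8 ± 4.91 CPM (0.75, SE 0.17, edgeR adjusted p = 0.0199), a call lost without wild-type replicate 2 or clone 1 replicate 1 or 3 (up to 0.119). LTBP3, which binds latent TGF-beta, fell in clone 2 (−0.91, SE 0.23, edgeR adjusted p = 0.0352). It lost the call without wild-type replicate 1 or 2, clone 2 replicate 1 or 3, or all replicates 1 (up to 0.157). The call was also lost in a fit of the 6 libraries compared (0.0707). EFEMP1, a fibulin and the highest of this list, had 166.9, 97.3 and 132.7 TPM and was not called.

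Of 18 tested CCN and other matricellular genes, 1 fell in clone 1, and 3 fell and 1 rose in clone 2, against 4.1% of all genes called lower in clone 1, and 2.75% lower and 3.21% higher in clone 2. SPP1, which encodes osteopontin, fell from 3.61 ± 2.88 CPM to 0.859 ± 0.113 in clone 1 (log2 fold change −2.07, SE 0.51, edgeR adjusted p = 0.0283) and to 0.689 ± 0.0189 in clone 2 (−2.38, SE 0.52, adjusted p = 0.0162). The first call ended when wild-type replicate 2 or any clone 1 library was dropped (adjusted p up to 0.252), and the second without wild-type replicate 2 or clone 2 replicate 3 (up to 0.188). WISP1, a CCN protein, fell in clone 2 to 7 counts from 129 (−3.98, SE 0.82, edgeR adjusted p = 0.0121), lost without wild-type replicate 2 or without all replicates 1 (up to 0.0658). CTGF, another CCN protein, rose in clone 2 from 452.9 ± 138.5 to 843.5 ± 169.6 CPM (0.90, SE 0.23, edgeR adjusted p = 0.0320), a call lost without wild-type replicate 1 or 2, clone 1 replicate 2 or clone 2 replicate 3 (up to 0.162) and in a fit of the 6 libraries (0.0666). EDIL3, an integrin-binding protein, fell in clone 2 by 0.52 on the log2 scale (edgeR adjusted p = 0.0464), a call that held in 3 of the 9 fits that omit a library and ended with the GC correction and in the fit of the 6 libraries. CYR61, the highest of this list, had 1229, 1120 and 1569 TPM and was not called.

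Among 20 tested receptors and binding partners, 1 fell in clone 1 and 2 fell in clone 2, where 4.1 and 2.75% of all genes were called lower. TLR4, a lipopolysaccharide receptor that also binds matrix ligands such as tenascin-C, was nearly absent from both clones. Wild-type libraries held 474 TLR4 counts, clone 1 held 3 and clone 2 held 7. The ratio of wild type to clone 1 was 143.7 (95% counting interval 48.9 to 699.4; edgeR adjusted p = 2.86e-05), and the log2 fold change in clone 2 was −5.84 (SE 0.65, adjusted p = 9.45e-05). BMP1, the procollagen C-proteinase, fell in clone 2 from 34.9 ± 8.67 to 20.4 ± 4.57 CPM (−0.77, SE 0.20, edgeR adjusted p = 0.0343), a call lost without wild-type replicate 1 or 2 or clone 2 replicate 3 (up to 0.154) and in a fit of the 6 libraries (0.0768). CALR, the calcium-binding chaperone calreticulin and the highest of the list, had 1509, 1321 and 1495 TPM and was not called. With the replicate number as a block, 19 family and partner genes were called in clone 2, in place of 10, among them all 10. The block also raised the share of all genes called in that comparison, from 5.96 to 16%.

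**Figure D4:**
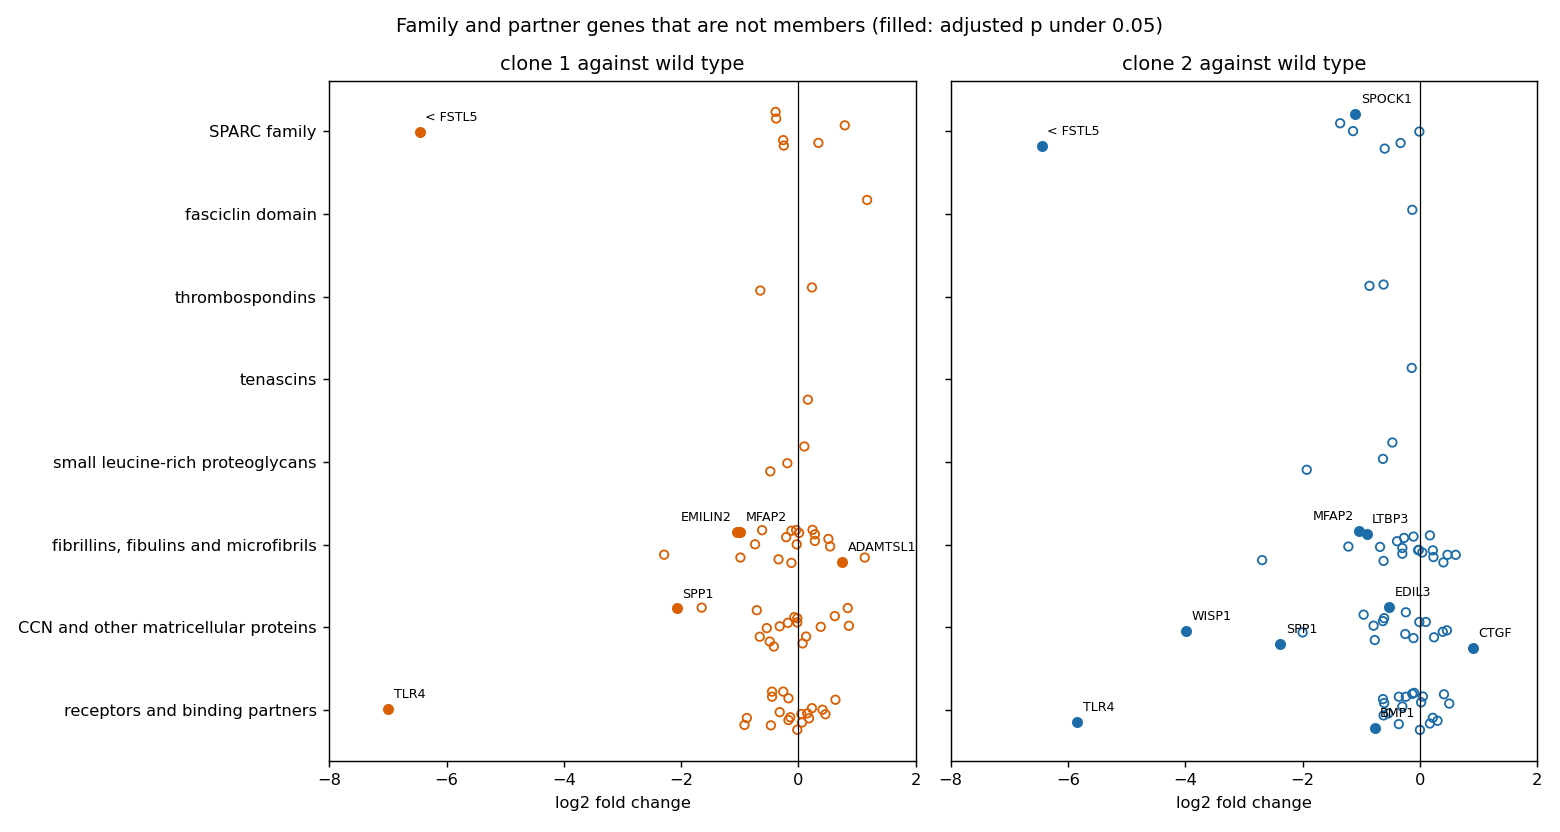
Log2 fold change (horizontal axes) of the 72 tested family and partner genes that are not members, by list (vertical axis, scattered within a list for legibility), in clone 1 (left) and clone 2 (right) against wild type; filled points have an edgeR adjusted p under 0.05. FSTL5, at 0 counts in both clones, is drawn at its bound and marked <; FSTL5 and TLR4 lie far to the left in both panels.

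Genes next to the members on the chromosome were listed as the 3 nearest tested genes on each side. Of 55 such neighbours, 4 were called in clone 1, where 5.51% of all genes were, and 4 in clone 2, where 5.96% were; one of the latter is LUM itself, the nearest tested gene to DCN. The 6 neighbours of SPARC had log2 fold changes of −0.17 to 1.65 in clone 1 and 0.26 to 1.22 in clone 2, against −4.27 and −4.60 for SPARC. GM2A, 448.9 kb away, was the called one, higher in clone 2 (0.59, edgeR adjusted p = 0.0277), and its call ended without wild-type replicate 1 or 2 or clone 2 replicate 3 (up to 0.134). Next to FSTL1, LRRC58 fell in clone 1 by 0.63 on the log2 scale (edgeR adjusted p = 0.0266) and stood at 0.02 in clone 2; dropping any clone 1 library or wild-type replicate 3 ended the call (up to 0.185). FREM2, a basement-membrane protein 1124.5 kb from POSTN and the second tested gene beyond it, fell in clone 2 from 4.38 to 0.0790 CPM (−5.59, edgeR adjusted p = 0.000231) and stood at −0.87 in clone 1. That call held in 9 of the 9 fits that omit a library, and the other 5 neighbours of POSTN lay between −0.38 and 0.26 in clone 2. Near BGN, TREX2, ZFP92 and FAM58A rose in clone 1 by 1.26, 2.22 and 0.77 on the log2 scale (edgeR adjusted p = 0.0320, 0.0321 and 0.0392), calls that each held in 4 of 9 such fits and ended when any clone 1 library or wild-type replicate 2 or 3 was dropped (up to 0.163). ZFP92 was at 0 CPM in clone 2 (edgeR adjusted p = 0.00547), against 0.692 in wild type. Besides DCN, which was not tested, the neighbours of LUM lay between −0.62 and 0.37 in clone 2.

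**Figure D5:**
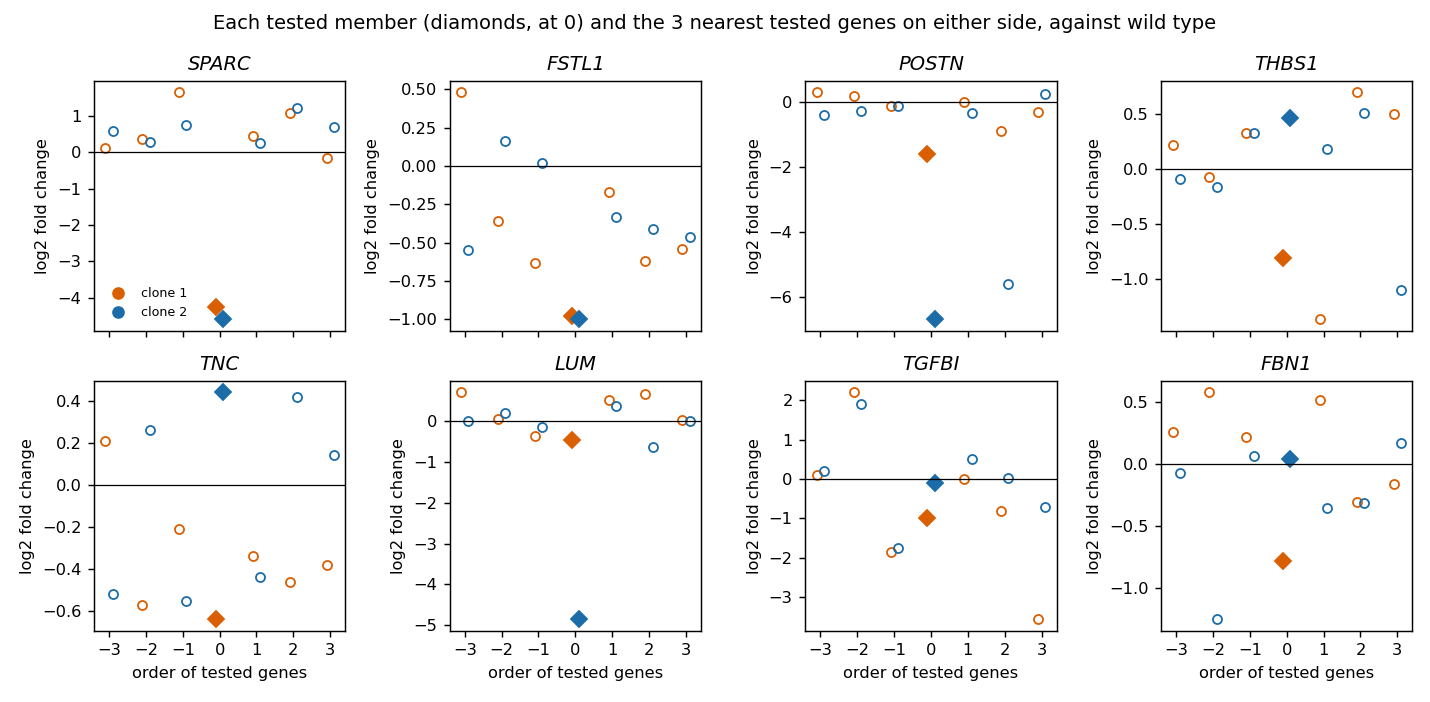
Log2 fold change (vertical axes, scale per panel) of each tested member (diamonds, position 0) and of its 3 nearest tested genes on either side by order (horizontal axis), in clone 1 and clone 2 against wild type. In clone 2 the tested neighbours of SPARC lie between 0.26 and 1.22 and those of LUM between −0.62 and 0.37 (DCN, next to LUM, was not tested and is not drawn), and next to POSTN the gene at position 2, FREM2, lies at −5.59 in clone 2.

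Genes with the pattern most like a member were found by the root mean square distance of centred log2 CPM over the 9 libraries, among 14337 genes with a mean of at least 1 CPM. Closest to SPARC were TSTD1 (distance 0.498), SELENBP1 (0.613) and FSTL5 (0.650). TSTD1 had 3.16 ± 0.785 CPM in wild type and 0.103 ± 0.179 in clone 1, and was at 0 in clone 2. Closest to POSTN were OASL (0.985), CD33 (1.09) and ZNF287 (1.17), all farther away than any gene named for the other members. OASL had 11.2 ± 5.91, 11.2 ± 6.88 and 0.988 ± 0.477 CPM in wild type, clone 1 and clone 2. Among the genes closest to THBS1 were VDR, the vitamin D receptor (0.204), and TNC (0.212), and closest to TGFBI were SPHK1 (0.208), ADAM19 (0.209) and COL4A2 (0.249). These distances are a description over 9 libraries of 3 groups, and both the difference between groups and the spread within them enter.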

How the data were processed

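RNA-seq of 9 libraries was analysed from raw counts per gene that the authors deposited in 2 tables; the 3 columns of wild-type libraries, the same in each table, entered once. STAR, featureCounts, Subread and DESeq2 and the build GRCh38 are named, without versions or roles, per the submitters' processing notes. The annotation release is not given in the sources used here, nor is the strand setting. The members and lists were chosen with earlier results of these data known.

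Counts were fitted with edgeR 4.0.16 in R 4.3.3: TMM scaling, filterByExpr by group (minimum count 10; 16921 genes), and glmQLFit (robust) over the 9 libraries in 3 groups, leaving 6 residual degrees of freedom (two-sided tests, Benjamini-Hochberg adjustment, threshold 0.05). The script was tested on simulated data. Total counts were 16890890 to 22456164, the biological coefficient of variation was 20.3%, and replicates differed beyond sampling noise (chi-square per gene 17.4 to 61.9). CPM used TMM-scaled totals, and TPM the exon lengths in the count tables. Each SE of an edgeR log2 fold change is the size of the change divided by the square root of its quasi-likelihood F value. It was derived from the test and not fitted separately. A floor of 3 counts over a group gave bounds for groups at 0.

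Text names all members, JAG1, family genes called in any comparison (up to 6 per list and comparison), the highest gene of each list per length, called neighbours, and 3 genes most like SPARC, POSTN and the 2 members with the highest level. One of these genes is not reported here. Alternatives were DESeq2 1.42.0, RLE scaling, all genes without the count filter, the 6 libraries compared, a replicate block, a correction for GC content (GENCODE 29) and length for 86.8% of tested genes, and leaving out each library; that correction with the block and the fit without replicate 1 were added after seeing the data. Same-numbered wild-type and clone 2 libraries deviated together (correlations 0.223, 0.269 and 0.246), a pairing inferred from the data and not stated in the labels, so values with the block are given beside that comparison.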

Additional observations from a re-analysis of the deposited data

Results flagged for a closer look

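Between the clones, 16 of the 72 tested family and partner genes differed by edgeR's quasi-likelihood test of clone 2 against clone 1, adjusted over all genes. That is a smaller share than the 33.9% of all genes called, so the number is not particular to these families. For these 16 genes the change from wild type differed between the 2 lines. Lower in clone 2 were SPOCK1 (log2 difference −0.84, adjusted p = 0.0322), SPOCK3 (−1.93, 0.0133), STAB2 (−1.30, 0.0396), LTBP4 (−0.39, 0.0476), EFEMP2 (−1.50, 0.00826), MMRN2 (−1.75, 0.0276) and ADAMTSL1 (−0.52, 0.0270). Also lower in clone 2 were WISP1 (−2.33, 0.0456), NID2 (−2.86, 0.0235), CD47, a receptor of THBS1 (−0.54, 0.00626), TLR2 (−1.26, 0.0102) and BMP1 (−0.61, 0.0287). Higher in clone 2 were EMILIN2 (1.02, 0.00122), CTGF (0.77, 0.0162), NOV (0.78, 0.00619) and ITGB5 (0.44, 0.0165). The calls for EFEMP2, EMILIN2, NOV and CD47 held in 9 of the 9 fits that omit a library, while WISP1 held in 2 and LTBP4 in 3. NOV lost its call without replicate 1 of every group (edgeR adjusted p = 0.063). THBS1 differed by 1.28 on the log2 scale, every clone 1 library lying below and every clone 2 library above the wild-type mean. THBS1 was chosen on these data, so its difference is given as a description. With 3 libraries per group, no test for outlying samples was run, and each library was only left out in turn.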

How the results depend on the processing

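Called genes, main against alternatives, were 933 in clone 1 against wild type and 1512 with no filter on low counts, 1479 with DESeq2, and 200 to 1301 with 1 library left out. In clone 2 against wild type they were 1008, and 1661 with no filter, 1818 with DESeq2, 416 from the 6 libraries compared, 391 without replicate 1 of every group, and 237 to 1583 with 1 library left out; between the clones they were 5733, and 3639 to 5782 with 1 left out. Called family and partner genes were 6 in clone 1 (10 with no filter, 11 with DESeq2, 3 to 9 with 1 library left out), 10 in clone 2 (16 with no filter, 5 from the 6 libraries, 3 to 14) and 16 between the clones (7 to 16). Called members were 2 in clone 1 (5 with no filter, 2 to 3 with 1 left out), 4 in clone 2 (3 to 5) and 5 between the clones (3 to 5). With the replicate block, called genes were 2322 in clone 1 and 2699 in clone 2, called family genes 15, 19 and 26 in clone 1, clone 2 and between the clones, and called members 7 in clone 1; with the GC and length correction added to the block these were 2085, 3228, 12, 19, 27 and 7. Same-numbered libraries of wild type and clone 1 correlated at 0.245, 0.082 and −0.097, and those of the clones at 0.219, −0.021 and 0.012. Replicate 1 thus deviated together there too, while replicates 2 and 3 showed no clear pairing. Not every library correlated best with its own number. Fold changes of members and JAG1 gave 459 values under the alternatives, of which 456 moved by less than an SD between replicates and 3, all of POSTN, by more; of 542 values for family calls, 441 kept the call, 101 lost it and 0 changed direction. The cause was not tested. Depth limits the members with few counts, such as BGN, DCN and, in clone 2, POSTN and LUM: in clone 2, 3 counts over the group correspond to 0.0518 CPM.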
